A study of Mus musculus with 4 samples.

Results

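The circadian clock of the mouse liver was followed through 10 genes, the activators Arntl, Clock and Npas2, the repressors Per1, Per2, Per3 and Cry1, the nuclear receptors Nr1d1 and Nr1d2, and the output factor Dbp. They were picked by symbol for their known role, with earlier results of these data known. All 10 were found among the 27027 gene entries of the count table. Of the 10 genes, 9 had a mean of at least 20 normalized counts over the libraries, as did 10066 entries of the table, and a gene past this limit is called tested here. Npas2 was below the limit and enters no count.

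Male C57BL/6J mice (C57BL/6 in the labels), for which no engineered allele is named, were fasted overnight and then injected intraperitoneally with 0.9% NaCl (control) or with acetaminophen (APAP) at 300 mg/kg in NaCl solution, and had free access to food afterwards. APAP is an analgesic that kills hepatocytes around the central vein at this dose. Livers were taken at 24 h or 48 h. RNA of the mice of each of the 4 groups was pooled, and each pool gave 1 library of MACE, a 3′ mRNA sequencing method that counts the ends of polyadenylated transcripts. Each group is therefore 1 library with no replicate, so no test between groups was possible, and the spread between mice cannot be seen. Every interval below is a 95% exact interval that covers counting error only. The mice lived under a regular light-dark cycle, and the hour of the day at injection or at collection is not given in the sources used here. A difference in that hour between the pools and an effect of APAP cannot be told apart.

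The clock is a feedback loop of transcription. ARNTL (also called BMAL1) pairs with CLOCK or with its relative NPAS2 and switches on genes that carry E-boxes, among them the Per, Cry, Nr1d1, Nr1d2 and Dbp genes. PER and CRY proteins then block the activators, while NR1D1 and NR1D2 (REV-ERBα and REV-ERBβ) repress Arntl through ROR elements. DBP binds D-boxes and carries the rhythm to metabolic genes, and in the liver the mRNAs of Arntl and Npas2 are known to peak at the opposite phase of the day to those of Dbp, Nr1d1 and Per3. Feeding and glucocorticoids can shift or induce parts of this loop in the liver.

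RefSeq promoter entries (build GRCm38.p6) were matched for 9 of the 10 genes, and Per2 is named only. The 250 bases before the start site were searched on both strands for the E-box CACGTG, the E′-box CACGTT, the D-box in the forms TTATGTAA, TTATATAA, TTACGTAA and TTACATAA, and the ROR core site AGGTCA. The sequences of 4 genes are shown because they hold a match and because their reads differed between pools. Each is written 5′ to 3′ in the direction of transcription, with the matches in capitals.

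Per1 (chr11:69098699-69098948, plus strand): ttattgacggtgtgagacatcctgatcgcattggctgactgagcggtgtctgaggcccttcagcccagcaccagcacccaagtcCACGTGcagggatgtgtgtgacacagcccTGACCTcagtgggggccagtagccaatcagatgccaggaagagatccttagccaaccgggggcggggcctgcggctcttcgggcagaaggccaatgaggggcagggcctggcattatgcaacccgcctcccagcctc
Per3 (chr4:151044666-151044915, minus strand): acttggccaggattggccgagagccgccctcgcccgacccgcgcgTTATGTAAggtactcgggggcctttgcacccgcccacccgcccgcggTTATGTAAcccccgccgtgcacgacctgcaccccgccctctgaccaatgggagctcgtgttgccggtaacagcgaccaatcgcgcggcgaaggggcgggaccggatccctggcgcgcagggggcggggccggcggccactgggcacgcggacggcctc
Cry1 (chr10:85185055-85185304, minus strand): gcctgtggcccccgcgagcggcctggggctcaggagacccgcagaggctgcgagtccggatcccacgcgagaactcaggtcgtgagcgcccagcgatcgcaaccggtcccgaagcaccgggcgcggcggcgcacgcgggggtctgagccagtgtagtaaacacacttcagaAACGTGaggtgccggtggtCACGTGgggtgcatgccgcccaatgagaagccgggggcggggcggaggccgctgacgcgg
Nr1d1 (chr11:98775378-98775627, minus strand): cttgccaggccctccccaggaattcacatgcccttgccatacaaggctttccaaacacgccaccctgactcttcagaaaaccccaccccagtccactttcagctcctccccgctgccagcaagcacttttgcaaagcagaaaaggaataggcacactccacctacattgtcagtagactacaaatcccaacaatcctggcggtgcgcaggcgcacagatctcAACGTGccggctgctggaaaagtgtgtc

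Of the Per1 start sites in RefSeq, the one shown holds an E-box that begins 166 bases before the start and a ROR core site at 137 bases, read on the opposite strand. The Per3 window holds the D-box TTATGTAA at 205 and again at 158 bases. The Cry1 window holds an E-box at 60 bases and an E′-box at 79 bases, and the Nr1d1 window an E′-box at 28 bases. Nr1d2 has a ROR core site at 77 bases and one of the Clock start sites has one at 119 bases, and the window of the other Per1 start site and those of Arntl, Npas2 and Dbp hold none of these letters. Among 32851 promoter windows of the same length, an E-box was present in 6.02%, an E′-box in 3.85%, a D-box in 1.43% and a ROR core site in 14% of windows. A match is a description of the letters and not a site shown to be bound.

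Per1 was the gene of the loop with the most reads gained after APAP, and it was higher at both times. Dbp and Per3 had lost most of their reads at 24 h, and at 48 h Per3 was back near its control while Dbp lay between. Per2 and Cry1 were near the control at 24 h and about 2 times lower at 48 h. Clock and Nr1d2 stayed near their controls at both times. Nr1d1 was lower than the control at 24 h and higher at 48 h, but the 2 control pools themselves differed for this gene by more than either APAP pool did.

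**Figure D1:**
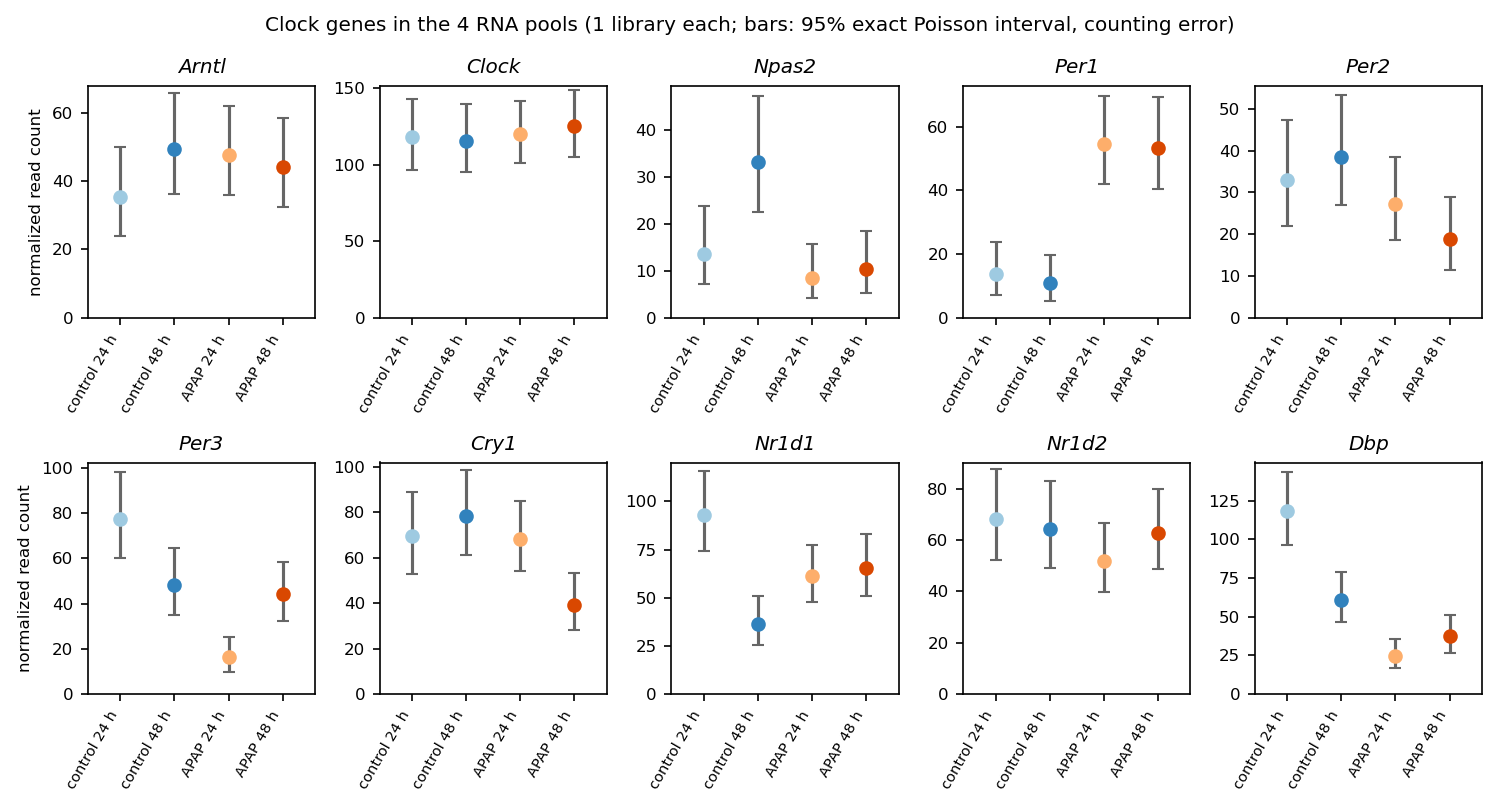
Normalized read counts of the 10 clock genes (vertical axes, each starting at 0) in the control and APAP pools at 24 h and 48 h (horizontal axes), with 1 library per point and bars for the 95% exact Poisson interval. Per1 lies at 54.5 and 53.4 in the APAP pools against 13.6 and 10.7 in the controls, and Dbp falls from 118 in the 24 h control to 24.7 in the 24 h APAP pool.

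Folds are ratios of reads divided by the size factor of each library. Among all genes tested, 3.93% were at least 2-fold higher and 4.82% at least 2-fold lower after APAP at 24 h, and of the 9 tested clock genes 1 was higher (Per1) and 2 were lower (Per3 and Dbp). At 48 h the shares of all genes were 3.86% higher and 4.83% lower, and the clock genes gave 1 higher (Per1) and 1 lower (Per2). Per1 passed the count limit only through its APAP pools. Between the controls, 48 h against 24 h, 1.28% of all genes were at least 2-fold higher and 1.21% lower, and the clock genes gave 0 higher and 1 lower (Nr1d1). The median log2 fold over the 9 tested clock genes was -0.275 at 24 h, -0.131 at 48 h and -0.0845 between the controls. Over all genes tested it was -0.0015, -0.035 and 0.014. With scaling by library totals, the median of all genes moved to 0.19 at 24 h and 0.23 at 48 h, and the shares of all genes became 6.61% higher and 3.02% lower at 24 h and 7.49% higher and 2.69% lower at 48 h. Per1, Per3 and Dbp were past 2-fold at 24 h under this scaling too, and at 48 h the clock genes gave 2 higher (Per1 and Nr1d1) and 0 lower.

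**Figure D2:**
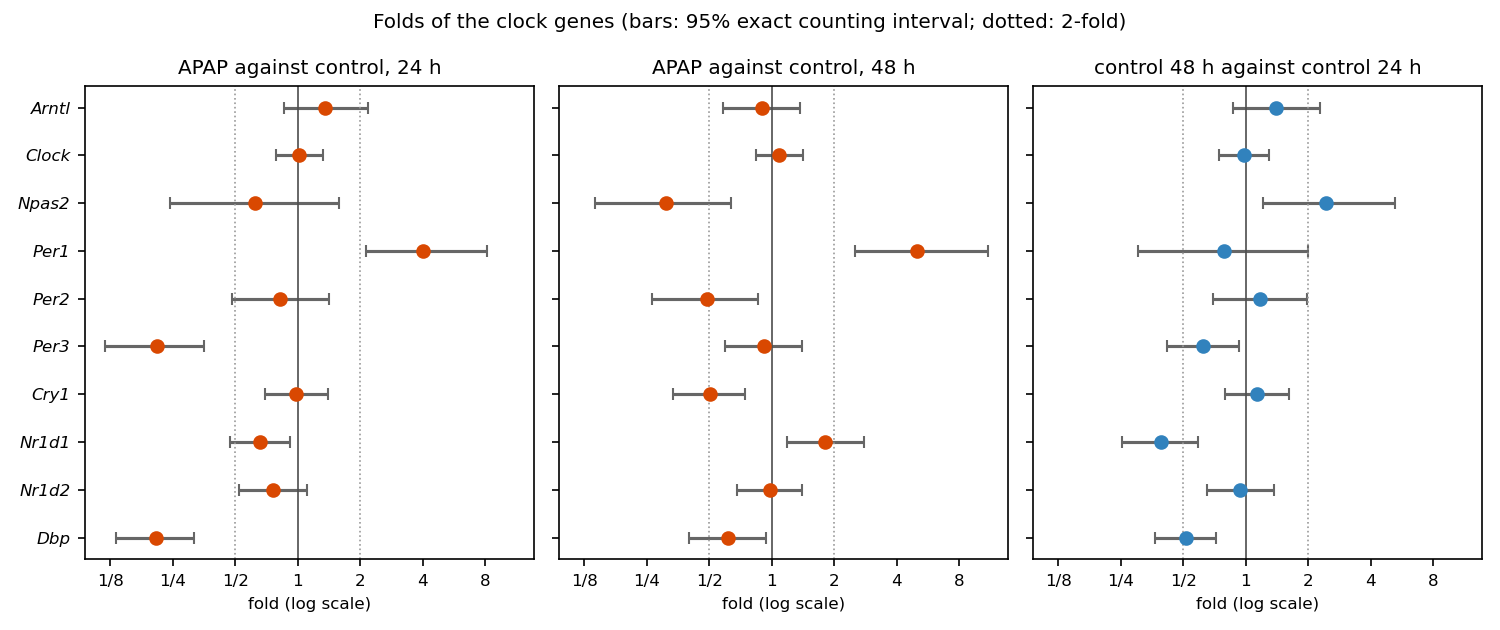
Folds of the 10 genes on a log scale (horizontal axes) for APAP against control at 24 h and 48 h and for the 48 h against the 24 h control, with bars for the 95% exact counting interval and dotted lines at 2-fold. Per1 lies right of 2-fold in both APAP panels, Per3 and Dbp lie left of it at 24 h, and Nr1d1 lies left of it between the controls.

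Among the activators, Arntl and Clock had intervals that include 1 at both times. Arntl (chr7:113207465-113314126, plus strand, GRCm38), the partner shared by both activator complexes, gave 31 reads in the 24 h control, 46 in the 48 h control, 56 in the 24 h APAP pool and 47 in the 48 h APAP pool. The 24 h control was the lowest and the other 3 libraries lay close together. APAP against control gave a fold of 1.35 (0.858 to 2.17) at 24 h, and at 48 h the fold was 0.894 (0.582 to 1.37). Both intervals include 1, so a difference was not detectable at this depth. Its fold at 48 h changed direction, to 1.07, with library totals.

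Clock (chr5:76209868-76304792, minus strand), the histone acetyltransferase partner of ARNTL, gave 104 and 108 reads in the 24 h and 48 h controls and 141 and 134 in the APAP pools. After scaling, its levels were 118 and 116 normalized counts in the controls and 120 and 126 after APAP. Its fold was 1.02 at 24 h, with an interval of 0.783 to 1.32, and 1.09 at 48 h, with an interval of 0.836 to 1.41.

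Npas2 (chr1:39193731-39363236, plus strand), which can take the place of CLOCK, gave 12 reads in the 24 h control, 31 in the 48 h control, 10 in the 24 h APAP pool and 11 in the 48 h APAP pool. The 48 h control stood above the other 3 libraries. At 48 h the gene was 3.22 times lower after APAP (1.58 to 7.11), and between the controls it was 2.44-fold higher at 48 h than at 24 h (1.22 to 5.21). Against the 24 h control, the fold of the 48 h APAP pool was 0.756. The entry of Npas2 joins it with the pseudogene Gm3617, which shares no exon base with it.

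The repressors moved apart from each other. Per1 (chr11:69095217-69109960, plus strand), a PER family member that also responds directly to hormones and stress, gave 12 and 10 reads in the 24 h and 48 h controls and 64 and 57 reads in the 24 h and 48 h APAP pools. Both APAP libraries lay far above both controls. Per1 was 4.0-fold higher at 24 h (2.14 to 8.13) and 4.98-fold higher at 48 h (2.52 to 10.9). Only 66 of the 10066 genes had a higher fold at 24 h, and 33 at 48 h. The controls alone, at 13.6 and 10.7 normalized counts, were below the limit of 20, so Per1 was tested only through its APAP pools. These folds and places rest on 12 and 10 control reads.

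Per2 (chr1:91415982-91459324, minus strand), the closest relative of Per1 in the loop, gave 29 and 36 reads in the controls and 32 and 20 reads after APAP at 24 h and 48 h. The 48 h APAP pool was the lowest of the 4. Per2 was 2.06 times lower at 48 h (1.16 to 3.75), whereas its fold at 24 h was 0.827 (0.484 to 1.42). The call at 48 h was just past 2-fold and ended with library totals (fold 0.584), with the 24 h control (0.569) and with the summed controls (0.523).

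Per3 (chr4:151003652-151044665, minus strand), a PER protein that is less needed for the rhythm itself, gave 68 reads in the 24 h control, 45 in the 48 h control, 19 in the 24 h APAP pool and 47 in the 48 h APAP pool. The 24 h APAP pool alone was far below the others. Per3 was 4.78 times lower at 24 h (2.84 to 8.42) and at 48 h its fold was 0.913 (0.594 to 1.41). The entry joins Per3 with Camta1, a neighbour on the same strand that shares no exon base with it and that gave 36, 40, 60 and 73 reads under its own entry, in the order 24 h control, 48 h control, 24 h APAP, 48 h APAP.

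Cry1 (chr10:85131700-85185064, minus strand), the cryptochrome that most strongly blocks CLOCK and ARNTL, gave 61 and 73 reads in the controls and 80 and 42 reads in the 24 h and 48 h APAP pools. After scaling, the 48 h APAP pool was lowest with 39.4 normalized counts, against 68.1 to 78.3 in the others. Cry1 was 1.99 times lower at 48 h (1.34 to 2.98), just short of the 2-fold limit that Per2 passed, and its fold at 24 h was 0.983 (0.695 to 1.39).

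The nuclear receptors differed from each other, most of all in the controls. Nr1d1 (chr11:98767932-98775333, minus strand), the heme-binding repressor of Arntl, gave 82 reads in the 24 h control, 34 in the 48 h control, 72 in the 24 h APAP pool and 70 in the 48 h APAP pool. After scaling, both APAP pools, at 61.3 and 65.6 normalized counts, lay between the controls at 93.2 and 36.5. Nr1d1 was 1.52 times lower at 24 h (1.09 to 2.12) and 1.80-fold higher at 48 h (1.18 to 2.80). With the controls exchanged, these folds became 1.68 and 0.704, so the direction of both rested on which control pool was used.

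Nr1d2 (chr14:18204054-18239127, minus strand), the second receptor of this kind, gave 60 and 60 reads in the controls and 61 and 67 reads after APAP at 24 h and 48 h. Its folds were 0.762 (0.525 to 1.11) at 24 h and 0.977 (0.679 to 1.41) at 48 h. Nr1d1 overlaps Thra, a gene on the opposite strand, over 263 exon bases. Thra gave 48, 54, 42 and 68 reads in the same order as above, without the low 48 h control seen for Nr1d1.

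The output factor Dbp (chr7:45705088-45710203, plus strand) gave 104 reads in the 24 h control, 57 in the 48 h control, 29 in the 24 h APAP pool and 40 in the 48 h APAP pool. Both APAP libraries lay below both controls. Dbp was 4.79 times lower at 24 h (3.15 to 7.50) and 1.63 times lower at 48 h (1.07 to 2.51). Only 64 of the 10066 genes had a lower fold at 24 h, next to 65 for Per3. Against the other control pool the Dbp fold was 0.404 at 24 h and 0.317 at 48 h, and against the summed controls 0.278 and 0.422, lower than 1 in each case. At 48 h Dbp was thus past 2-fold with the other or the summed controls and not with its own. Sphk2, which lies on the opposite strand and shares 539 exon bases with Dbp, gave 109, 128, 133 and 115 reads.

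The control pools were compared with each other to see how far clock genes differ without APAP, the 2 pools being also apart in the time since the fast and injection. Nr1d1 was 2.56 times lower in the 48 h control (1.70 to 3.94), and only 34 of the 10066 genes had a lower fold. Dbp was 1.94 times lower (1.39 to 2.72) and Per3 1.60 times lower (1.08 to 2.39). Arntl, Per2 and Cry1 were on the higher side, at 1.40 (0.869 to 2.28), 1.17 (0.698 to 1.98) and 1.13 (0.792 to 1.61), with intervals that include 1. Clock, Nr1d2 and Per1 gave 0.979, 0.943 and 0.786, also with intervals that include 1. These comparisons share the control libraries with those of APAP, so a low or high control enters both.

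The change in fold from 24 h to 48 h was then taken as the ratio of the 48 h to the 24 h fold. This ratio was 4.36 for Per3 (2.17 to 8.89), 2.94 for Dbp (1.59 to 5.46), 2.74 for Nr1d1 (1.58 to 4.76) and 0.512 for Cry1 (0.299 to 0.875). Per3 and Dbp thus lay nearer to the control of the same time at 48 h, and Cry1 farther from it. The 48 h control itself had fewer reads of Per3 and Dbp than the 24 h control. Against the summed controls, the Per3 fold was 0.260 at 24 h and 0.707 at 48 h, and that of Dbp 0.278 and 0.422, and for Nr1d1 the folds were 0.958 and 1.02. For Dbp with the controls exchanged, the order of the folds turned, 0.404 at 24 h and 0.317 at 48 h. For Per1 the ratio was 1.25 (0.455 to 3.49), and for Per2 0.588 (0.261 to 1.32), so for these genes a change between times was not detectable at this depth.

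Ratios of reads inside a library need no scaling between libraries. The ratio of Dbp to Arntl reads, an output gene over an activator of the opposite phase, was 3.36 in the 24 h control, 1.24 in the 48 h control, 0.518 in the 24 h APAP pool and 0.851 in the 48 h APAP pool. It was above 1 in both controls and below 1 in both APAP pools. At 24 h it was 6.48 times lower after APAP (3.41 to 12.4), while at 48 h the interval of the difference, 0.789 to 2.69 times lower, includes 1. The control ratios differed by 2.71 times (1.49 to 4.92).

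Per3 also had its lowest ratio in the 24 h APAP pool, with ratios to Arntl of 2.19 and 0.978 in the 24 h and 48 h controls and 0.339 and 1 in the APAP pools. Nr1d1 had its lowest ratio in the 48 h control, with 2.65 and 0.739 in the controls and 1.29 and 1.49 after APAP. Its ratio was 2.06 times lower after APAP at 24 h (1.16 to 3.68) and 2.02-fold higher at 48 h (1.09 to 3.74). Per1 and Per2, members of the same family, were exchanged in order. Per1 had 0.414 and 0.278 times the reads of Per2 in the 24 h and 48 h controls and 2 and 2.85 times those in the APAP pools. This ratio was 4.83-fold higher after APAP at 24 h (2.05 to 11.7) and 10.3-fold higher at 48 h (4.01 to 27.1). Read numbers of 3′ ends were used for these ratios as counted, one tag per transcript end, and the same pair was compared across libraries.

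**Figure D3:**
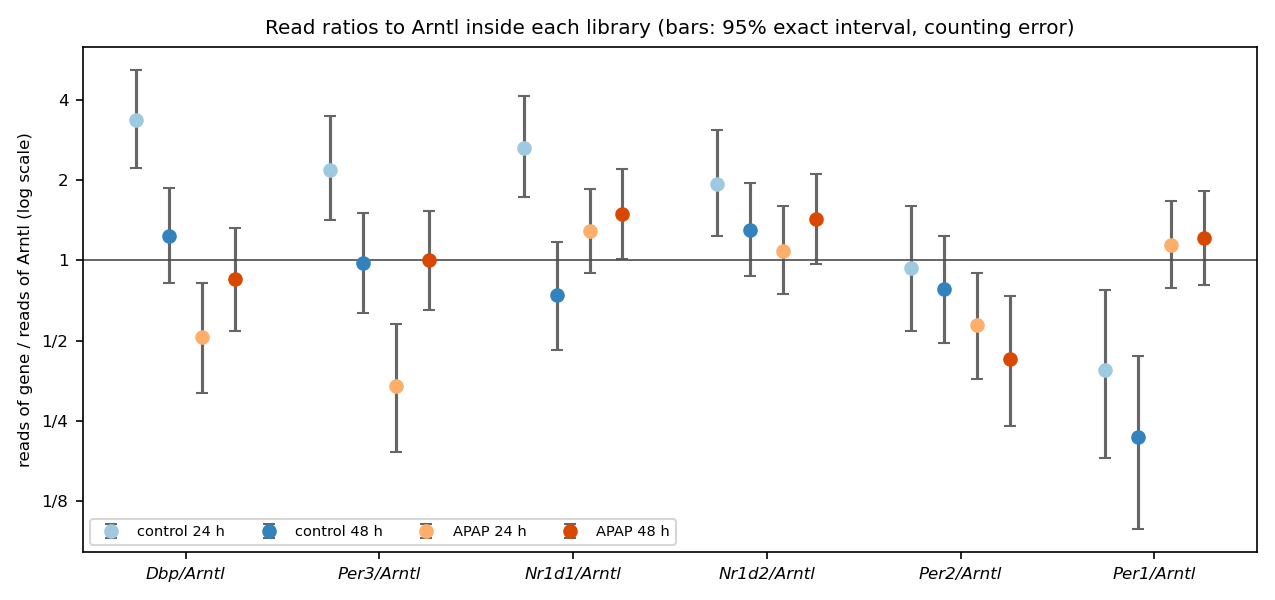
Reads of 6 clock genes divided by reads of Arntl in the same library (vertical axis, log scale), for the 4 pools by colour, with bars for the 95% exact interval. The Dbp ratio falls from 3.36 in the 24 h control to 0.518 in the 24 h APAP pool, and the Per1 ratio lies at 1.14 and 1.21 after APAP against 0.387 and 0.217 in the controls.

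Of 12 other clock genes in the table, 8 were tested. At 24 h 0 were at least 2-fold higher and 1 was lower (Bhlhe40), and at 48 h and between the controls there were 0 in either direction. Of all tested genes, 4.82% were at least 2-fold lower at 24 h. Rora, an activator that competes with NR1D1 and NR1D2 for ROR elements, gave 276 and 267 reads in the controls and 377 and 363 after APAP, with folds of 1.02 and 1.19.

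Bhlhe40 (DEC1), an E-box binding repressor, gave 195 and 125 reads in the controls and 102 and 72 reads after APAP at 24 h and 48 h. It was 2.55 times lower at 24 h (2.00 to 3.28) and 1.99 times lower at 48 h (1.47 to 2.69), and 1.65 times lower in the 48 h than in the 24 h control (1.32 to 2.09). Its pools thus had the same order as those of Dbp in the controls, and both APAP pools lay below both controls. The other factors that bind D-boxes did not follow Dbp. Tef gave 90 and 159 reads in the controls and 115 and 147 after APAP (folds 0.957 and 0.809), Hlf gave 75, 77, 121 and 89 reads in the order given above (folds 1.21 and 1.01), and the D-box repressor Nfil3 gave 76, 73, 162 and 86 reads (folds 1.60 and 1.03).

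The remaining tested genes were within 2-fold. Cry2, the second cryptochrome, had folds of 1.12 and 1.30 at 24 h and 48 h. Folds were 1.05 and 1.11 for the PER kinase Csnk1d, and 0.891 and 1.15 for Btrc, which marks phosphorylated PER proteins for breakdown. Csnk1e, Fbxl21, Bhlhe41 and Ciart were below the count limit, with at most 25 reads in a library.

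Of 14 genes known to be driven by the clock in liver, 12 were tested. At 24 h 0 were higher and 4 were lower by 2-fold (Upp2, Gys2, Cyp7a1 and Elovl3), at 48 h 1 was higher (Noct) and 3 were lower (Cyp7a1, Elovl3 and Insig2), and between the controls there were 0. Of all tested genes, 4.82% were at least 2-fold lower at 24 h and 4.83% at 48 h (3.02% and 2.69% with library totals). The list was chosen with earlier results of these data known. With library totals Cyp7a1 and Insig2 were no longer past 2-fold at 48 h. Elovl3, a fatty acid elongase, gave 675 and 691 reads in the controls and 173 and 100 after APAP, 5.21 times lower at 24 h (4.40 to 6.19) and 7.90 times lower at 48 h (6.40 to 9.85). Upp2, a uridine phosphorylase, gave 315 and 410 reads in the controls and 76 and 255 after APAP, 5.53 times lower at 24 h (4.29 to 7.20) and 1.84 times lower at 48 h. Upp2 was thus nearer to its control at 48 h, in the order also seen for Dbp and Per3.

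Gys2, the liver glycogen synthase, gave 338 and 330 reads in the controls and 182 and 235 after APAP, with folds of 0.403 and 0.623. Insig2, which holds back sterol synthesis, gave 489 and 664 reads in the controls and 582 and 356 after APAP, with folds of 0.892 at 24 h and 0.469 at 48 h. Cyp7a1, the rate-limiting enzyme of bile acid synthesis, gave 147 and 187 reads in the controls and 30 and 102 after APAP, 6.54 times lower at 24 h (4.39 to 10.04) and 2.10 times lower at 48 h (1.64 to 2.70). Noct, a rhythmic phosphatase, gave 23 and 20 reads in the controls and 34 and 54 after APAP, with folds of 1.11 and 2.36. The median log2 fold of the 12 genes was -0.43 at 24 h, -0.17 at 48 h and 0.20 between the controls. The list did not move as 1. At 24 h 5 of the 12 had a fold above 1 and 7 below, and at 48 h 3 above and 9 below. Por, Alas1 and Coq10b were on the higher side at 24 h, at 1.61 (1.45 to 1.78), 1.41 (1.25 to 1.58) and 1.58 (1.05 to 2.42).

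Genes known to be induced by glucocorticoids, of which Per1 is one, were read as a separate list of 7 without Per1. At 24 h 4 were at least 2-fold higher and 0 lower, at 48 h 3 were higher and 0 lower (4 higher with library totals, Sgk1 being added), and between the controls there were 0. Fkbp5, a chaperone of the glucocorticoid receptor, gave 70 and 84 reads in the controls and 433 and 300 after APAP, which was 4.63-fold higher at 24 h (3.59 to 6.05) and 3.12-fold higher at 48 h (2.44 to 4.03). Klf9 gave 108 and 108 reads in the controls and 330 and 337 after APAP, 2.29-fold and 2.73-fold higher. Zbtb16 gave 65 and 58 reads in the controls and 253 and 160 after APAP, 2.92-fold and 2.41-fold higher. For these genes, as for Per1, both APAP pools lay above both controls, but they were named because they passed 2-fold.

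Dusp1, an immediate-early phosphatase, gave 41 and 56 reads in the controls and 127 and 70 after APAP, and was 2.32-fold higher at 24 h (1.62 to 3.39) with a fold of 1.09 at 48 h. The median log2 fold of the 7 genes was 1.19 at 24 h, 0.87 at 48 h and 0.14 between the controls. Tat, a classic hormone-induced liver enzyme on the same list, had folds of 0.859 and 1.07. The other genes of the list were Tsc22d3, with folds of 1.288 and 1.135, and Sgk1, with folds of 1.08 and 1.83. Cirbp, an RNA-binding protein whose mRNA responds to temperature, gave 51 and 47 reads in the controls and 140 and 129 after APAP. It was 2.06-fold higher at 24 h (1.48 to 2.89) and 2.40-fold higher at 48 h (1.71 to 3.43). Neither hormone levels nor body temperature were measured in these libraries, and their part in the clock gene levels was not tested.

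**Figure D4:**
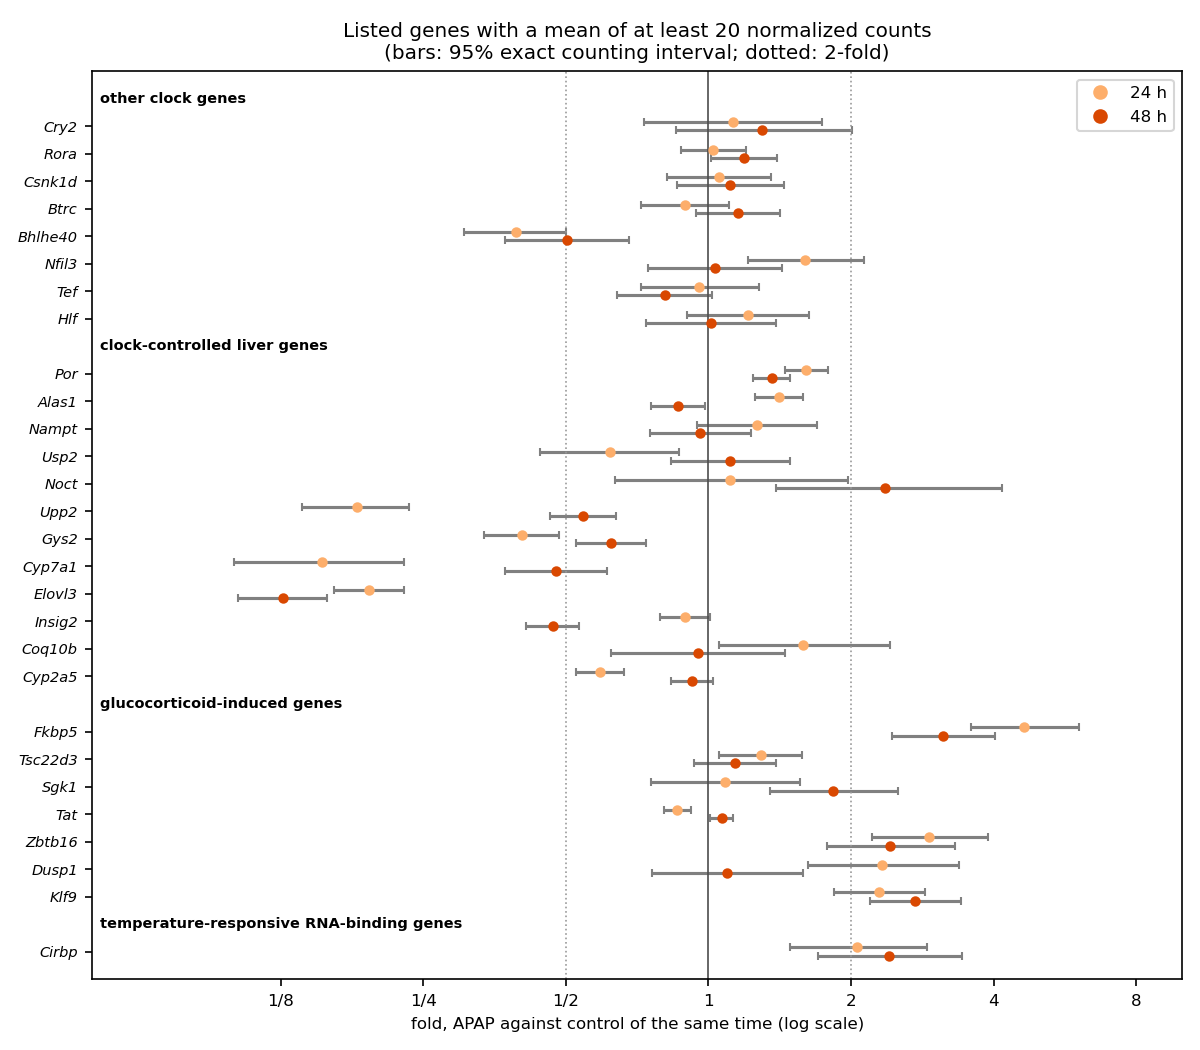
Folds of APAP against control at 24 h and 48 h (colours) for the tested genes of the other lists, on a log scale (horizontal axis), with bars for the 95% exact counting interval and dotted lines at 2-fold. Fkbp5, Zbtb16, Klf9 and Cirbp lie right of 2-fold at both times, and Elovl3 lies left of it at both times.

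The libraries held 4859661 to 5698778 reads. The tissue label was checked by its markers, and 4 hepatocyte markers of 5 listed were analysed and summed to 435490 and 446719 normalized counts in the 24 h and 48 h controls and 374094 and 435007 in the APAP pools. Of 7 macrophage and monocyte markers the sums were 689, 706, 846 and 1487, and of 3 neutrophil markers 14.8, 11.8, 190 and 145, in the same order of pools. Sums were 400, 425, 511 and 932 for 5 stellate and fibroblast markers, 134, 173, 385 and 305 for 4 cholangiocyte markers, 537, 600, 543 and 585 for 4 endothelial markers, and 25.0, 16.1, 23.0 and 27.2 for 4 lymphocyte markers. Csf3r, Nkg7 and Cd79a were each at 0 in 1 library. The macrophage and monocyte, neutrophil, cholangiocyte and stellate sums were thus higher in both APAP pools, as Per1 was, though not every marker of a list was. Of the tested markers, 2 of 5 macrophage and monocyte and 3 of 5 stellate markers had a fold above 1 at 24 h. At 48 h these were 3 of 5 and 4 of 5. Of the neutrophil and cholangiocyte lists only 2 markers each were tested, and these were above 1 at both times. Krt19 had folds of 0.999 and 0.538, Lrat 0.557 and 0.832, and Clec4f 0.534 and 0.985 at 24 h and 48 h. The hepatocyte sum was lowest in the 24 h APAP pool, as Dbp and Per3 were, but the sizes differed. Folds at 24 h were 0.873 for Alb, 0.7495 for Serpina1c, 0.561 for Ttr and 1.17 for Apoa1, beside 0.209 for both Dbp and Per3. The part of these marker sums in the clock gene levels was not tested. In bulk tissue fewer cells of a type and less RNA per cell cannot be told apart.

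The genes whose 4 levels were most like those of Dbp and of Arntl were taken from 4364 genes outside the lists, by the Euclidean distance between centred log2 levels over the 4 libraries. For Dbp these were Ppp1r3b (distance 0.437), Enpep (0.455), Ttc23 (0.464), Mid1ip1 (0.481) and Gsta3 (0.481). Ppp1r3b, a glycogen-targeting phosphatase subunit of liver, gave 266 and 189 reads in the controls and 113 and 114 after APAP, so its difference between the controls was smaller than that of Dbp. For Arntl they were Polr2f (0.0203), Ccni (0.0356), Rapgef4 (0.0753), Creb3 (0.0756) and Tmbim1 (0.0811). With 4 libraries many genes can lie close to a gene that differs little, and the distances are a description.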

How the data were processed

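Hepatic RNA was pooled per group by the authors, and 1 MACE library was made from each of 4 pools. Per the study's methods, duplicate reads were removed by molecular identifiers, low-quality bases and poly(A) tails were clipped, reads were mapped to mm10, and the authors deposited raw read counts per gene from HTSeq. Versions are not given in the sources used here. The same table holds the authors' scaled values, log2 ratios and p-values, which were not used. Genes in sense and antisense direction have separate entries (36 antisense entries), and 2414 entries join overlapping genes.

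Counts were divided by median-of-ratios size factors (DESeq2 1.42.0, R 4.3.3), which lay between 0.880 and 1.17 and rested on 16338 genes. A gene was tested for size if its mean was at least 20 normalized counts, and called if its fold was at least 2 in either direction. Intervals are Clopper-Pearson (95%, Python 3.11.15, scipy 1.17.1). The ratio of folds has a conditional exact interval. The steps were tested on simulated data. With 1 library per group no p-value is given.

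Members and lists were chosen with earlier results of these data known. All members and every gene of the other clock gene list were named, and from each further list at most 4 genes, those of highest mean among genes past 2-fold in a comparison. Noct, Cyp7a1, Por, Alas1, Coq10b, Tat, Tsc22d3, Sgk1 and the marker genes were chosen after their values were seen. For likeness, the 5 nearest genes with a mean of at least 100 were taken. Positions come from GENCODE M21 (GRCm38, the same assembly as mm10) by symbol, and promoters from RefSeq. The scaling of the lists and of all tested genes was an alternative chosen after seeing the data. The other alternatives were TMM (edgeR 4.0.16), library totals, a pseudocount of 1, no count limit, limits of 1.5-fold and 5-fold, an interval that leaves out 1, the other control pool, and the sum of the controls. Rbm3 and 1 hepatocyte marker were not analysed here, and 3 genes of the lists are not reported here and enter none of the list counts.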

Additional observations from a re-analysis of the deposited data

Results flagged for a closer look

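For 4 genes the fold of APAP against control differed between 24 h and 48 h by more than counting error. The fold at 48 h divided by that at 24 h was 4.36 for Per3, 2.94 for Dbp, 2.74 for Nr1d1 and 0.512 for Cry1. Each ratio rests on 4 libraries without replicates, so the spread between mice was not tested. For Nr1d1 the 48 h control was the lowest library and the APAP pools were alike (72 and 70 reads). For Cry1 the 48 h APAP pool was the lowest library (42 reads), and for Per3 and Dbp the 24 h APAP pool was (19 and 29 reads). The 24 h control was the highest library for Per3 and Dbp (68 and 104 reads), so it enters their ratios too. With the controls exchanged, the order of the Dbp folds turned, 0.404 at 24 h and 0.317 at 48 h.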

How the results depend on the processing

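The number of clock genes past the limit was 3 at 24 h, 2 at 48 h and 1 between the controls. With a limit of 5-fold it was 0 in each of these comparisons, and with 1.5-fold it became 5 at 48 h and 3 between the controls. Without a limit on low counts it became 3 at 48 h and 2 between the controls, Npas2 being added in both. The shares of all genes at 1.5-fold, at 5-fold and without the count limit were not computed. These numbers therefore cannot be set beside a background. The other alternatives left the number within 1.5 times, but at 48 h library totals turned 1 higher and 1 lower into 2 higher and 0 lower, and with the other or the summed controls the lower gene was Dbp (0.317 and 0.422) in place of Per2 (0.569 and 0.523). Of 130 alternative folds for 30 main folds, 9 changed direction, and no fold past 2-fold did. These were Arntl at 24 h (0.967 with the other control) and at 48 h (1.07 with library totals, 1.25 with the other control, 1.04 with the summed controls), Nr1d1 at 24 h and 48 h (1.68 and 0.704 with the other control), and, with library totals, Cry1 at 24 h (1.12), Nr1d2 at 48 h (1.17) and Per3 at 48 h (1.10). Folds with TMM, library totals and the pseudocount stayed inside the counting interval, 30 of 30 in each, while 6 of 20 left it with the other control pool and 2 of 20, both of Nr1d1, with the summed controls.

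For the other lists and all tested genes, TMM and library totals were added after seeing the data. TMM left each list with the same number of calls, and library totals are given beside the values they change.

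No paired analysis was possible because each group holds 1 library, which makes 1 pair at each time. A fit that takes the times as replicates of 1 effect was not run. Leaving out a library removes a group. Most members gave under 100 reads in a library, so the counting intervals are wide, and the spread between mice, the hour of collection and food intake were not measured here.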
